A study of Homo sapiens with 10 samples.

Results

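Pre-mRNA splicing is carried out by small nuclear ribonucleoproteins (snRNPs), in which the U1, U2, U4, U5 and U6 RNAs are held by protein cores. A ring of Sm proteins sits on U1, U2, U4 and U5, and a related ring of LSm proteins sits on U6. Sm proteins are methylated on arginine by the PRMT5 methylosome and loaded onto the RNA by the SMN complex, after which SF3A, SF3B, U2AF and the tri-snRNP proteins build the active spliceosome. The transcription factor MYC, which binds E-boxes as a dimer with MAX, is known from mouse lymphoma to act on Sm and PRMT5 genes.

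The 50 snRNP and core spliceosome genes described here were taken from a list of names and are 50 of 19974 protein-coding genes on chromosomes 1 to 22 and X. A gene was called bound by a MYC protein when a peak summit, the base of highest signal within a peak, lay within 1 kb of either end of the gene. Binding was read from U2OS osteosarcoma cells with a MYC knockout that carried doxycycline-inducible FLAG-tagged MYC. Chromatin with 10% mouse NIH3T3 cells mixed in as an exogenous reference was precipitated with anti-FLAG (IP). The 10 libraries were the 3A mutant induced with doxycycline (2 IPs), the 7A mutant induced (2 IPs), wild-type (WT) MYC induced (2 IPs and 1 input), and WT MYC uninduced (2 IPs and 1 input). Induction was with 1 µg/mL for 24 h. The labels do not say which residues 3A and 7A change, or whether a line is 1 clone.

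The values come from 3 deposited peak lists, 1 per induced protein, so there is no replicate list, no spread between replicates and no test between proteins. The 3A list held 845 peaks, the 7A list 64 and the WT list 4749. Fold enrichment is the authors' ratio of IP signal to local background at a summit. The 95% interval given with a fold is the exact Poisson interval of the fragment pileup recovered from the authors' fold and p-value, with the local background held fixed. It covers counting error only. Folds are read within a list, since how the mouse reads entered the lists is not given and library totals were not used. No peaks of uninduced IPs or of inputs were analysed here, so signal without induction was not set against these peaks. The files hold no expression values, and binding at these genes and binding at active genes in general cannot be told apart.

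3A was at 9 of the spliceosome genes, 7A at a pair of them and WT MYC at 26. 3A had a summit at 9 of the 50 genes (18.0%, Wilson 95% interval 9.77 to 30.8%), where 3.51% of all protein-coding genes had one. With only peaks of −log10 q of at least 10, 3A was at 5 of 50, and over all protein-coding genes at 482 instead of 701. 7A had a summit at 2 of 50, SNRPB and SF3B3, where the share of all protein-coding genes was 0.125%; among WT-bound protein-coding genes it was 0.626%. WT had a summit at 26 of 50 (52.0%, 38.5 to 65.2%), where the share was 16.8%. All 9 genes with a 3A summit, and both with a 7A summit, also had a WT summit. So did 630 of the 701 protein-coding genes with a 3A summit and 21 of the 25 with a 7A summit. Of the 26 genes with a WT summit, the 9 with 3A were 34.6% (19.4 to 53.8%), where 18.8% of all 3352 WT-bound protein-coding genes had 3A. At a −log10 q of at least 10 these counts were 5 of 26 members and 450 of 3200 WT-bound protein-coding genes, so the contrast was smaller. The 26 genes had 26 distinct WT summits, 1 each, so no count came from neighbouring members sharing a peak.

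Among the roles named for comparison, the methylosome and the Sm core had the largest shares with WT MYC, and the LSm ring the smallest. 3A had a summit at 1 of 3 methylosome genes, 4 of 8 Sm core genes, 2 of 9 SF3A/B genes and 0 of 7 LSm genes. WT had one at 3 of 3, 6 of 8, 4 of 9 and 2 of 7 of these genes. With so few genes the intervals are wide. The WT share was 40.9 to 92.9% for the Sm core and 8.22 to 64.1% for LSm, which overlap. Of the other roles, 3A was at 1 of 2 U2 snRNP genes and 1 of 1 PRPF19 complex gene, and at none of the U1, U2AF, tri-snRNP, U11/U12 or SMN complex genes. WT was at 2 of 3 U1 genes, 1 of 2 U2 genes, 1 of 2 U2AF genes, 4 of 8 tri-snRNP genes, 1 of 1 PRPF19 complex gene, 1 of 3 U11/U12 genes and 1 of 4 SMN complex genes.

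**Figure D1:**
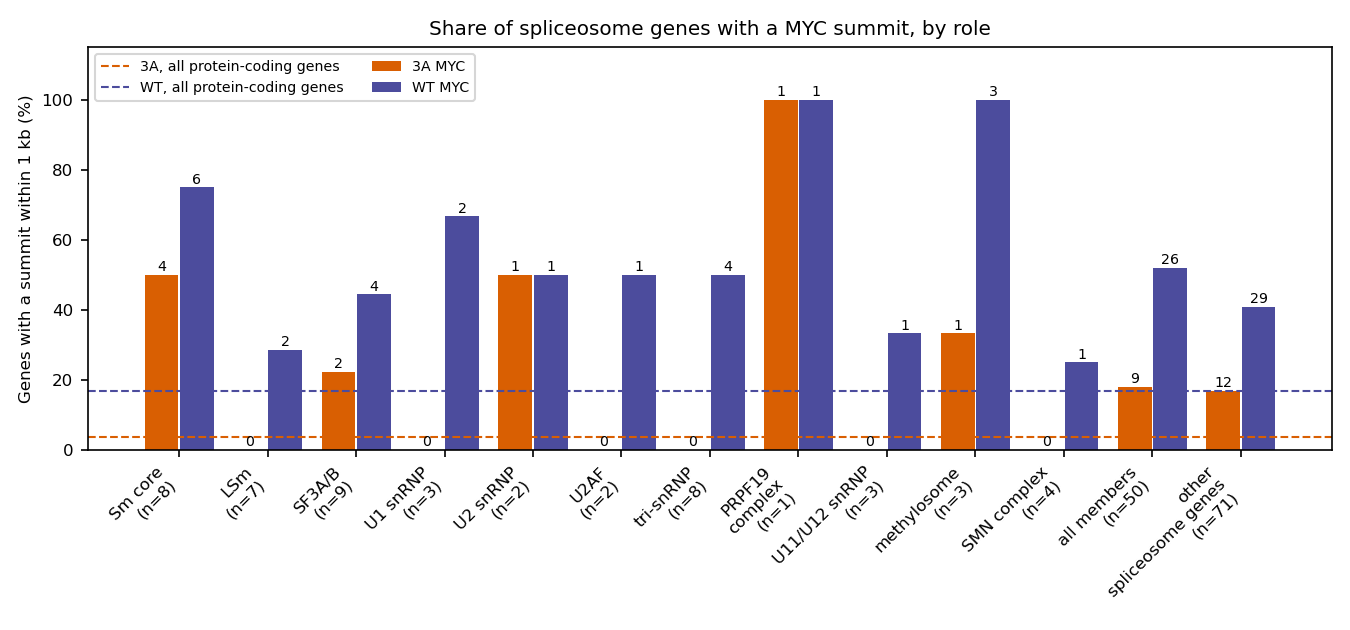
Share of genes (%) with a summit within 1 kb of a gene end, for 3A (orange) and WT (blue), by role, for all 50 members and for 71 other spliceosome genes. Numbers over the bars are counts of genes, and dashed lines are the shares over all 19974 protein-coding genes (3.51% for 3A, 16.8% for WT). WT bars stand above 3A bars or level with them in every role.

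The Sm core held the strongest WT site of all 50 genes and 4 of the 9 sites that 3A also occupied. Sm proteins form the ring that the U1, U2, U4 and U5 RNAs thread through. SNRPD1 had a 3A fold of 3.01 (2.22 to 3.99), with 46 fragments piled up at the summit over a background of 14.6. Its WT fold was 14.5 (12.3 to 16.9), with 155 fragments over 9.79, on the peak chr18:21611976-21612851 (hg38). The 3A fold was rank 583 of 845 peaks and the WT fold rank 75 of 4749. The lists differ in length, so ranks place a site within its list and show no change between proteins.

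SNRPB, which encodes the SmB proteins, was bound by all 3 MYC proteins. Its 3A fold was 5.96 (5.035 to 6.997; 146 fragments over 23.7), its 7A fold 3.12 (2.46 to 3.91; 74 fragments over 23.0), and its WT fold 7.60 (6.40 to 8.96; 140 fragments over 17.5). The 3A peak was rank 18 of 845 in its list, the 7A peak rank 47 of 64 and the WT peak rank 818 of 4749. The summits lay 62 bp (3A), 142 bp (7A) and 175 bp (WT) downstream of the listed start, inside the WT peak chr20:2470086-2470960. The 250 bases upstream of that start are shown because this promoter alone, among members with sequence at hand, carried all 3 proteins (RefSeq, GRCh38.p14, chr20:2470790-2471039, minus strand, 5′ to 3′).
SNRPB: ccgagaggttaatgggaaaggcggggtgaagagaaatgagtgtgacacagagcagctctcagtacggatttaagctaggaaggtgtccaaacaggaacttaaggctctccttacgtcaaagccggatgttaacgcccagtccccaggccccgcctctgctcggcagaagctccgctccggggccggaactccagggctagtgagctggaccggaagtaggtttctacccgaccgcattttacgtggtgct
It holds none of the E-box letters searched for below, on either strand, and says nothing of the bases downstream of the start, where the summits lay.

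SNRPE resembled SNRPB in both lists. Its 3A fold was 5.22 (4.34 to 6.24; 120 fragments over 22.2), rank 43 in its list. Its WT fold was 7.01 (5.93 to 8.24; 145 fragments over 19.8), rank 1046. The 3A and WT summits lay 3 bp apart, 13 and 10 bp from the nearer end of the gene. SNRPD3 had a lower fold over a high background, with a 3A fold of 2.88 (2.37 to 3.46; 112 fragments over 38.3) and a WT fold of 3.27 (2.73 to 3.89; 124 fragments over 37.2). Its WT summit also lay within 1 kb of the end of GUCD1, so that this site is shared with another protein-coding gene. SNRPB, SNRPD1 and SNRPD3 encode Sm proteins that PRMT5 methylates, and each had a summit in both the 3A and the WT list. This grouping was made after the values were seen. It leaves out SNRPN, a paralogue of SNRPB that counted as unbound by 3A, 7A and WT alike.

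The other Sm genes had WT MYC alone or no summit. SNRPF had a WT fold of 5.50 (4.17 to 7.13) with its summit 77 bp downstream of the start, and no 3A summit within 1 kb. SNRPG had the lowest WT fold of the 26 bound members, 2.54 (2.03 to 3.13; 85 fragments over 32.9), and its nearest 3A summit was 8254 bp away. SNRPD2 had its nearest WT summit 231405 bp away. SNRPN, an imprinted paralogue of SNRPB expressed mainly in brain, had its nearest WT summit inside the gene span, 54730 bp from an end, with a fold of 5.16.

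**Figure D2:**
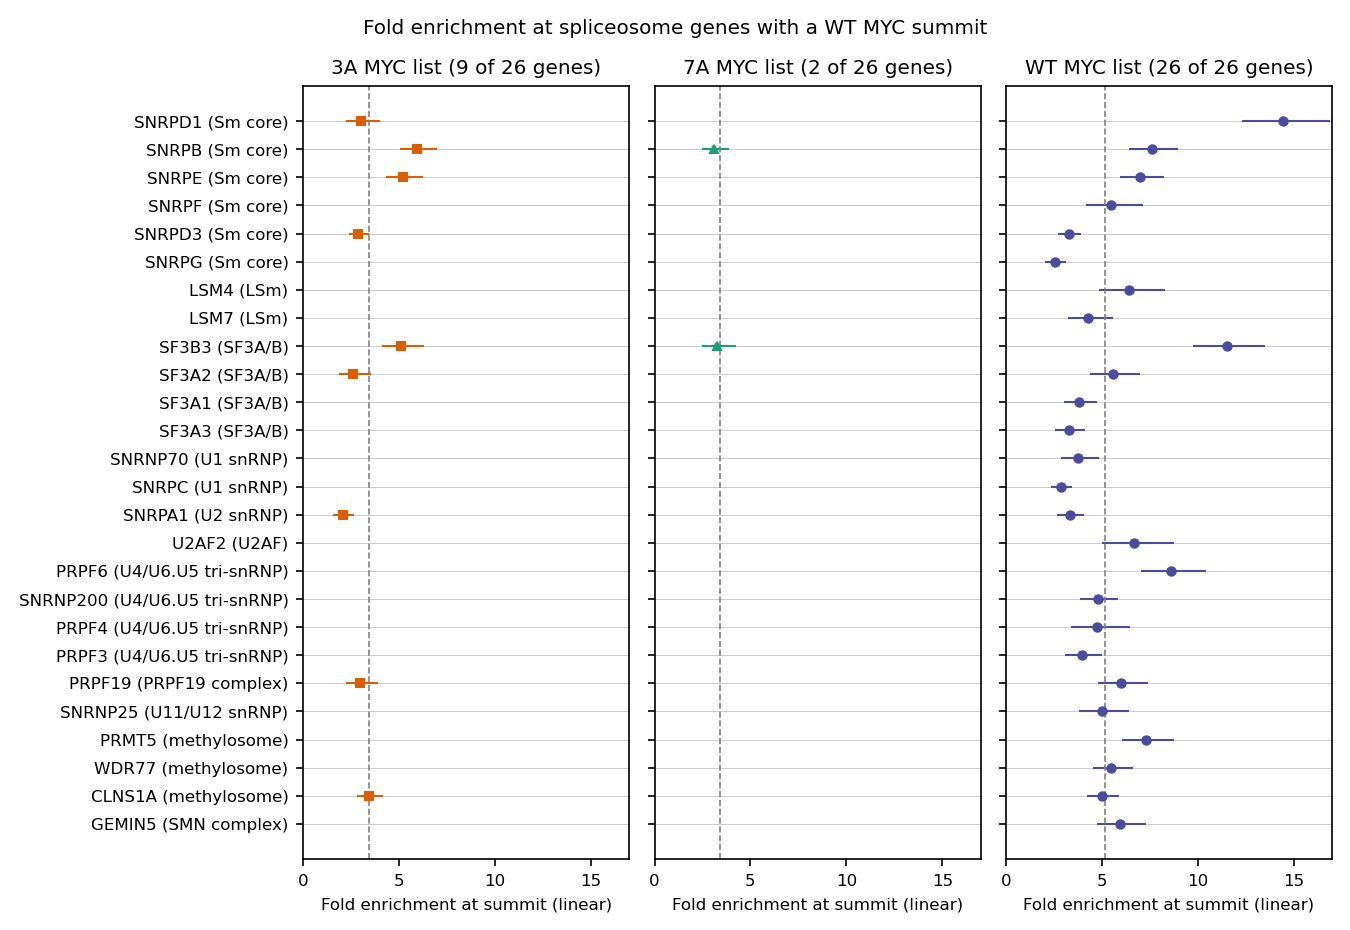
Fold enrichment at the summit (linear axis) in the 3A, 7A and WT lists for the 26 spliceosome genes with a WT summit, ordered by role. Points are the authors' folds, bars the 95% counting intervals, and dashed lines the median of each list (3.41, 3.39 and 5.14). SNRPD1 and SF3B3 stand apart on the right of the WT panel, and an empty row means no summit within 1 kb in that list.

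The LSm ring, which caps the end of U6 RNA, had a 3A summit at 0 of 7 genes. The interval of that share reached 35.4%, above the 3.51% of all protein-coding genes, so the 0 does not set LSm genes apart. LSM4 had a WT fold of 6.41 (4.86 to 8.31; 55 fragments over 7.73) and LSM7 one of 4.29 (3.23 to 5.58; 53 fragments over 11.6), with summits 49 bp downstream and 38 bp upstream of their starts. Their nearest 3A summits were 51569 and 84468 bp away. LSM2, LSM3, LSM5, LSM6 and LSM8 had their nearest WT summits between 54451 and 1814246 bp away. None of the unbound LSm genes was therefore close to the 1 kb limit.

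In SF3A/B, the U2 subcomplex that holds the branch site, binding was uneven. All 3 SF3A genes had WT MYC, but SF3B3 was the only SF3B gene that did. SF3B3 encodes a large scaffold of SF3B. It had a 3A fold of 5.11 (4.09 to 6.32; 84 fragments over 15.6), a 7A fold of 3.27 (2.46 to 4.26; 53 fragments over 15.5) and a WT fold of 11.5 (9.77 to 13.5; 152 fragments over 12.3). Its 3A peak was rank 51 of 845, its 7A peak rank 40 of 64 and its WT peak rank 203 of 4749 (chr16:70523390-70524362). The WT summit was also within 1 kb of the end of COG4, a Golgi trafficking gene.

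SF3A2 had a 3A fold of 2.61 (41 fragments over 15.1) and a WT fold of 5.57 (72 fragments over 12.1), but its summits were 788 bp apart. The 3A summit was 229 bp downstream of the SF3A2 start, and the WT summit was 559 bp upstream of it, near the end of PLEKHJ1. The peaks overlapped, and each summit lay inside the peak of the other list. The 3A fold had an interval of 1.89 to 3.51 and its peak a −log10 q of 4.25. Whether the 2 lists mark different places was not tested. SF3A1 (3.80, 3.01 to 4.72) and SF3A3 (3.27, 2.54 to 4.14) had WT summits 33 bp downstream and 41 bp upstream of their starts, and no 3A summit. SF3B1, the branch site subunit often mutated in blood cancers, had its nearest WT summit 64829 bp away, and SF3B2, SF3B4, SF3B5 and SF3B6 had none nearer than 23084 bp.

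The methylosome was the only group of more than 1 gene bound in full by WT. PRMT5 is the arginine methyltransferase, WDR77 its partner and CLNS1A the adaptor that brings it Sm proteins. CLNS1A had a 3A fold of 3.43 (2.80 to 4.16; 101 fragments over 28.7) and a WT fold of 5.00 (4.21 to 5.91; 137 fragments over 26.6), with summits 15 bp apart. PRMT5 had a WT fold of 7.32 (6.06 to 8.77; 116 fragments over 15.0) and WDR77 one of 5.49 (4.52 to 6.62), and neither had a 3A summit nearer than 51488 bp. The 3 WT summits were 29 bp (PRMT5), 36 bp (WDR77) and 53 bp (CLNS1A) downstream of the starts. The WDR77 summit is shared with the end of ATP5PB, and the PRMT5 summit with a divergent transcript and a tRNA gene. Of the SMN complex, which loads Sm rings, GEMIN5, the snRNA-binding subunit, had a WT fold of 5.93 (4.77 to 7.29) and no 3A summit. GEMIN4 had a WT summit 2318 bp from the nearer gene end, with a fold of 7.14. It was 172 bp downstream of the listed start, so GEMIN4 counts as unbound by its gene ends and as bound by its start. SMN1 and GEMIN2 had no WT summit nearer than 1342097 bp. SMN1 lies in a duplicated region with the near-identical SMN2, and whether reads could be placed there is not given.

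The tri-snRNP, which brings U4, U5 and U6 to the intron, had WT MYC at 4 of the 8 members and 3A at none of them. The interval of that 3A share reached 32.4%, above the 3.51% of all protein-coding genes. Outside the 50, 3A was at 2 of 10 tri-snRNP genes, TXNL4A and PPIH. PRPF6, the bridge between U5 and U4/U6, had the third highest WT fold of all 50 genes, 8.63 (7.06 to 10.4; 104 fragments over 11.2), and its nearest 3A summit was 9452 bp away. The PRPF6 WT summit also lay within 1 kb of an end of SAMD10, and that of PRPF4 within 1 kb of an end of CDC26. SNRNP200, the helicase that unwinds U4/U6, had a WT fold of 4.79 (3.88 to 5.85). PRPF4 had one of 4.73 (3.38 to 6.44) and PRPF3 one of 3.98 (3.10 to 5.03). The intervals of these 3 genes overlap. PRPF8, the scaffold of the catalytic centre, had its nearest WT summit 345291 bp away. SNRNP40, SNRNP27 and PRPF31 had none nearer than 9098 bp.

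Of the remaining roles, PRPF19 and SNRPA1 had 3A as well as WT. PRPF19, the ubiquitin ligase that gives its complex its name, had a 3A fold of 2.98 (2.23 to 3.91) and a WT fold of 5.98 (4.78 to 7.39) at summits 5 bp apart. SNRPA1, a U2 protein, had the lowest 3A fold of the 9 genes, 2.05 (1.57 to 2.63), which was rank 834 of 845, and a WT fold of 3.32 (2.67 to 4.08). U2AF2, which reads the polypyrimidine tract, had a WT fold of 6.70 (5.02 to 8.76), and its partner U2AF1 had its nearest WT summit 200131 bp away. Of the U1 genes SNRNP70 (3.74, 2.85 to 4.83) and SNRPC (2.85, 2.34 to 3.44) had WT summits, and the nearest to SNRPA was 33876 bp away. In the U11/U12 snRNP of the minor spliceosome SNRNP25 had a WT fold of 4.99 (3.80 to 6.43), with its summit near the end of POLR3K, and SNRNP35 and SNRNP48 had none nearer than 60050 bp. The second U2 gene, SNRPB2, had its nearest WT summit 788575 bp away.

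Measured from gene ends, no member had its nearest WT summit close to the 1 kb limit. The WT summit farthest inside it was that of SF3A2, at 559 bp, and the nearest outside it was that of GEMIN4, at 2318 bp. Measured from listed starts the split differs, since the GEMIN4 summit was 172 bp downstream of its start. Of the 24 genes without a WT summit, 19 had none within 50 kb of a gene end. No share over all protein-coding genes is given beside these distances, so they do not set the members apart. None of the 24 had a 3A or 7A summit, which restates that every member with 3A or 7A also had WT.

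The WT folds of the 26 bound genes were ordinary for that list. Their median was 5.25 (quartiles 3.84 to 6.62), beside 5.13 (4.13 to 6.83) over all 3352 WT-bound protein-coding genes, and 13 of the 26 lay above the median of all WT peaks. Genes with a 3A summit had WT folds of 3.27 to 14.5 (median 5.98, n = 9), and genes without one had WT folds of 2.54 to 8.63 (median 4.79, n = 17). The ranges overlap between 3.27 and 8.63. Over all WT-bound protein-coding genes the medians were 6.84 with 3A (n = 630) and 4.93 without (n = 2722). With those genes split into 4 equal groups by WT fold, a description added after the values were seen, 3A was at 2 of 8, 1 of 5, 2 of 7 and 4 of 6 members from the lowest group to the highest. The shares over all genes in the same groups were 9.67%, 12.1%, 15.9% and 37.6%. In the highest group PRMT5 and PRPF6 were the members without 3A.

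The 9 genes bound by both proteins stood in a different order in each list. By 3A fold SNRPB came first, followed by SNRPE, SF3B3, CLNS1A, SNRPD1, PRPF19, SNRPD3, SF3A2 and SNRPA1. By WT fold SNRPD1 came first, followed by SF3B3, SNRPB, SNRPE, PRPF19, SF3A2, CLNS1A, SNRPA1 and SNRPD3. Each 3A fold was also read, within the 3A list, beside those of the 20 nearest in WT fold among the 630 protein-coding genes with both, a description chosen after the values were seen. SNRPB had a higher 3A fold than all 20 of its neighbours (5.96, beside a median of 3.38 and a highest value of 4.66), and SNRPE than 19 of 20. SF3B3 was above 16 of 20, CLNS1A above 12 and SNRPD3 above 9, so these lay among genes of like WT fold. PRPF19 was above 5 and SF3A2 above 3. SNRPD1 was above 2 of its 20 neighbours (3.01, beside a range of 2.76 to 7.30), so other genes with WT folds of 13.4 to 15.4 had 3A folds as low. SNRPA1 was below all 20 (2.05, beside a lowest value of 2.39). These are positions of single values with no replicate. Neighbours were counted as genes, and some have the same peak, such as LIAS and RPL9 near SNRPB, so 20 genes are not always 20 sites. COG4, GUCD1 and PLEKHJ1, also among the 630, had the same folds as SF3B3, SNRPD3 and SF3A2.

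**Figure D3:**
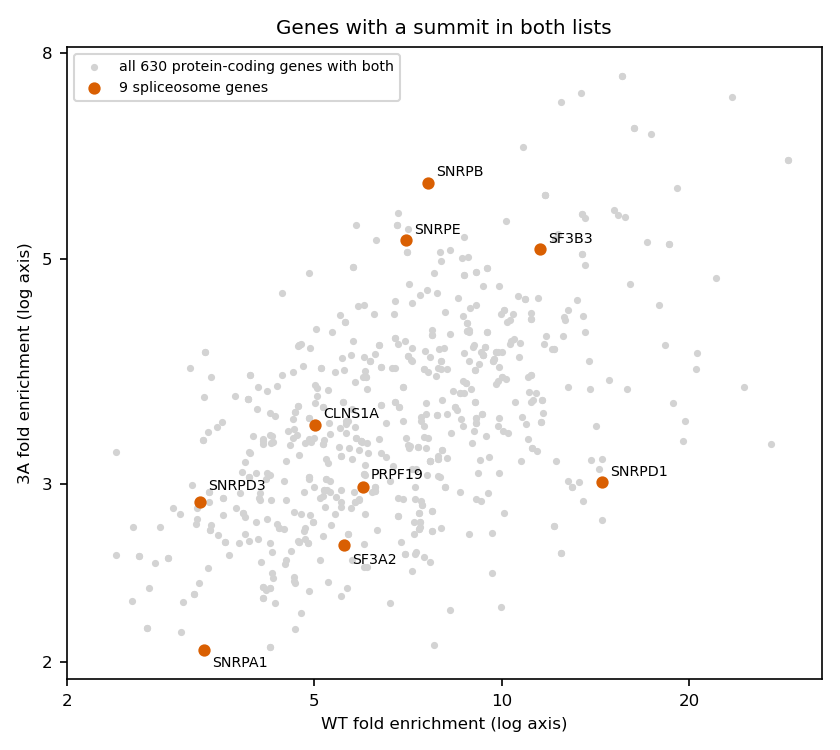
The 3A fold against the WT fold (log axes) at the 630 protein-coding genes with a summit in both lists (grey) and the 9 spliceosome genes among them (orange). SNRPB lies above the grey points near its WT fold of 7.60, and SNRPD1 lies among the lower points near its WT fold of 14.5. Each point is 1 gene, with no replicate.

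Positions of summits relative to transcription starts were partly set by the call, which required a summit within 1 kb of a gene end. They are therefore read beside all protein-coding genes called the same way. Start positions were at hand for 23 of the 26 WT-bound genes. SNRPD1, SF3B3 and PRPF3 are those without. WT summits lay from 559 bp upstream to 278 bp downstream of the nearest listed start, with a median distance of 74 bp, and 15 of 23 were within 100 bp. Over all protein-coding genes with a start within 1 kb of their WT summit the median distance was 157 bp, and 927 of 2614 were within 100 bp. Of the 23 summits 13 were downstream of the start, 9 upstream and 1 on it, beside 1351, 1256 and 7 of the 2614. For 3A the 7 summits with a start lay from 235 bp upstream to 229 bp downstream, with a median distance of 122 bp, equal to that of all 3A-bound genes. In all, 9 of the 26 WT summits were within 1 kb of the end of another protein-coding gene, and 14 were near another gene of any kind. Besides the pairs named above, the coding neighbours were SPPL2B at LSM7 and CCDC157 at SF3A1. No share over all WT-bound genes is given beside these counts, so they do not set the members apart.

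**Figure D4:**
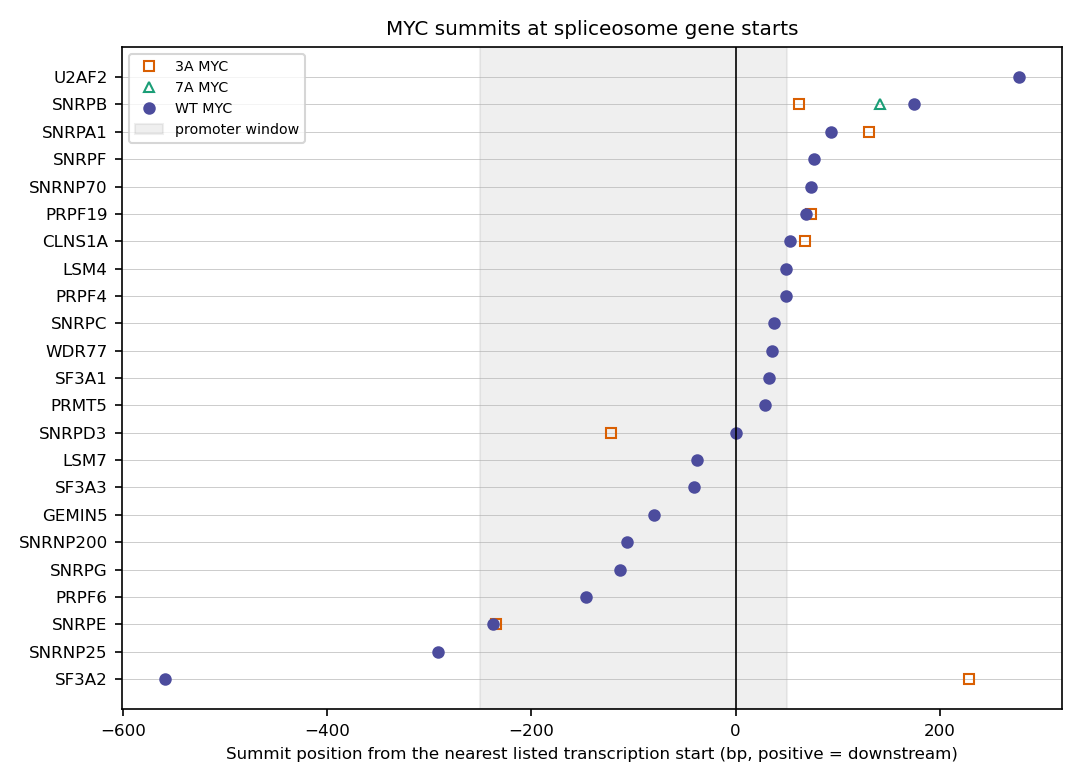
Position of 3A (squares), 7A (triangle) and WT (circles) summits relative to the nearest listed transcription start, in bp, positive downstream, for 23 WT-bound spliceosome genes. The shaded band is the promoter window searched for E-boxes. Most WT summits fall within 100 bp of the start, and the SF3A2 summits are the farthest apart.

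The E-box letters that MYC and MAX bind were searched on both strands in RefSeq promoter windows of 300 bases, 250 before to 50 after each start, for 44 of the 50 genes. The canonical CACGTG was in a window of 1 of 23 WT-bound members, WDR77, and of 2 of 21 members without a WT summit, SF3B1 and SNRNP48. Over protein-coding genes with a window it was in 19.2% of the 2806 WT-bound and in 10.9% of all 15813, and over all 35116 windows of the table in 7.26%. The variant CACGCG, or CGCGTG on the other strand, was in windows of 7 of 23 WT-bound members and 7 of 21 others, beside 30.9% of all WT-bound genes, 18.1% of all protein-coding genes and 11.4% of all windows. CATGTG, or CACATG, was in 0 of 23 and in 1 of 21, beside 9.23% of all WT-bound genes and 11.1% of all windows. GEMIN4, 1 of the 7 others with CACGCG or CGCGTG, counts as unbound by its gene ends. It had a WT summit 172 bp downstream of its listed start. Matches of these motifs may share bases, and each motif was counted by itself. A match is a description of letters and not a binding site, and a window without one says nothing of bases outside it.

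The sites with CACGTG are shown with 12 bases on each side (RefSeq, GRCh38.p14), capitals marking the E-box, to set the bound WDR77 beside the unbound SF3B1 and SNRNP48. WDR77 is at chr1:111449229-111449258, minus strand, SF3B1 at chr2:197435119-197435148, minus strand, and SNRNP48 at chr6:7590153-7590182, plus strand.
WDR77: tcagaggtgcacCACGTGgggtttgctgcc
SF3B1: tggcagttctgtCACGTGtcacccgacgga
SNRNP48: ggctgttcaagtCACGTGgcgactgtggcc
The WDR77 E-box begins at base 11 of the transcript, and the WT summit was 23 bp downstream of its centre. In SF3B1 the E-box begins 108 bases upstream of 1 of its 2 listed starts, the other lying nearer. In SNRNP48 it begins 33 bases upstream of the listed start. The WT summits nearest to SF3B1 and SNRNP48 were 64829 and 200320 bp from a gene end. The same letters thus stood at starts with and without a WT peak.

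Of the WT-bound genes with CACGCG, LSM7, at chr19:2328610-2328639, and GEMIN5, at chr5:154938312-154938341, both on the minus strand, are shown the same way because the letters lay near the summit.
LSM7: gcgccgcgcatgCGCGTGggggaggtcaaa
GEMIN5: gggccagtgcagCACGCGtggtcccgccct
The WT summit was 0 bp from the centre of these letters in LSM7 and 35 bp downstream of it in GEMIN5. In PRPF6 it was 7 bp upstream of the letters capitalised in the 250 bases before its start (chr20:63980882-63981131, plus strand), shown as the strongest WT site among members with such a match.
PRPF6: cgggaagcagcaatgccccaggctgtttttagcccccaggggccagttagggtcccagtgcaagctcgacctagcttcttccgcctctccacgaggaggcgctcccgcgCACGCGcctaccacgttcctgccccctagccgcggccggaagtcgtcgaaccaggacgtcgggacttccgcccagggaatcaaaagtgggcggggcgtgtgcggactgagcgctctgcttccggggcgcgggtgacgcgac
SNRNP70, LSM4, SF3A2 and SNRNP25 held the same variant, 128 bp or more from their WT summits. The median number of CG pairs per window was 28 in WT-bound members and 26 in the others, beside 29 in all WT-bound genes and 20 in genes without a WT summit.

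Other genes of the pathway were taken from a list of 71 factors outside the 50. 3A had a summit at 12 of 71 (16.9%, Wilson 95% interval 9.94 to 27.3%), 7A at 0 and WT at 29 (40.8%, 30.2 to 52.5%). All 12 with 3A had WT as well, as did 630 of the 701 protein-coding genes with 3A. At PPIH the peaks did not overlap, with the 3A summit 448 bp from one end of the gene and the WT summit 107 bp from the other. The intervals overlap those of the 50 genes for 3A and for WT. The largest WT folds were at DDX42, an SF3B-associated helicase (3A fold 3.83, WT fold 10.0), the PRMT5 adaptor gene RIOK1 (3A 3.51, WT 9.28), the cap-binding gene NCBP2 (3A 3.78, WT 8.75), the cyclophilin gene PPIL1 (3A 2.88, WT 7.42) and the branch site factor PUF60 (3A 2.75, WT 7.39). The WT summits of DDX42, RIOK1, NCBP2 and PUF60 were also within 1 kb of an end of CCDC47, CAGE1, NCBP2AS2 and NRBP2. TXNL4A, PPIH, RBM25, DHX15, MEPCE, DDX20 and TGS1 also had 3A, with 3A folds of 2.37 to 3.46 and WT folds of 3.38 to 7.35. At TXNL4A the 3A summit was 656 bp upstream of the nearest listed start, and the WT summit was also near an end of RBFA. By role, 3A was at 3 of 9 and WT at 7 of 9 U2 and branch site genes. At tri-snRNP genes 3A was at 2 of 10, TXNL4A and PPIH, and WT at 4 of 10. For genes of snRNA maturation and transport the counts were 3 of 8 for 3A and 5 of 8 for WT, for U1-associated genes 1 of 6 and 4 of 6, and for SMN complex genes 1 of 5 and 3 of 5. LSm-related genes had no 3A and WT at 1 of 5, and catalytic step factors no 3A and WT at 1 of 8. That gene was DHX8, with its WT summit 970 bp past its 3′ end and within 1 kb of an end of ETV4. At PRPF19 complex genes, which act in activation of the spliceosome, 3A was at 1 of 12 and WT at 1 of 12. All 3 further methylosome genes, COPRS, RIOK1 and PRMT7, had WT, and RIOK1 had 3A. No gene of 5 in the U11/U12 group had a summit in any list.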

How the data were processed

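Per the submitters' processing notes, the tools were Bowtie2 and cutadapt, Picard and SAMtools, with MACS2. No version is given, and of the builds hg38, hg19 and mm10 no role is stated. The deposited narrowPeak lists, 1 per induced protein, hold for each peak the authors' fold enrichment (a ratio), its p-value as −log10 p, its q-value as −log10 q, and a deposited score made from the q and not used. The labels do not describe how the 2 IPs were combined, the control or any spike-in scaling. The build was taken as hg38 because 60.2% of WT summits lay within 1 kb of a protein-coding gene end of GRCh38.p14, against 5.22 and 5.96% after shifts of 100 kb.

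Gene spans and promoter windows came from RefSeq tables. All 50 members matched by symbol, and 70 of 71 other genes, the other one by an older symbol. LSM6, PRPF3, SF3B3, SMN1, SNRNP35 and SNRPD1 had no promoter window. Pileup and background were solved from fold = (pileup + 1)/(background + 1) and a Poisson tail. They matched within 0.02 of a step for 845 of 845 3A, 63 of 64 7A and 4749 of 4749 WT peaks, and 2000 of 2000 simulated peaks were recovered. Binding calls followed the 1 kb rule at 200 of 200 simulated summits, which checks the coding of the rule and not whether a gene is bound. Library depth is unknown. Members and lists were chosen with earlier results of these data known. All members are accounted for, with values for those bound by 3A or 7A, the 3 highest and the lowest WT fold of each role, and, of the other genes, the 5 highest WT folds and those with 3A. No test across samples was possible with 1 list per protein. Alternatives were windows of 500 bp, 2 kb and 5 kb, −log10 q of at least 5 or 10, any base of the peak, starts only, distinct summits, and peak overlap. Work was done in Python 3.11.15 with pandas 2.3.3, numpy 2.4.6, scipy 1.17.1, matplotlib 3.10.9 and mpmath 1.4.1.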

Additional observations from a re-analysis of the deposited data

How the results depend on the processing

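Of 91 recomputed values 86 kept within 1.5 times the count, or within the 95% interval of the median, and 5 did not. At a −log10 q of at least 10, 3A was at 5 members instead of 9 (482 instead of 701 of all protein-coding genes). PRPF19, SF3A2, SNRPA1 and SNRPD1 were those lost. With that cutoff 5 of 26 WT-bound members also had 3A, beside 450 of 3200 WT-bound protein-coding genes. 7A was then at 1 (12 instead of 25 of all protein-coding genes), SF3B3 being lost, and 3A was at 7 of the other spliceosome genes instead of 12. Counting only summits at a listed start also left 7A at 1, because SF3B3 has no start listed. WT counts of members ran from 24 to 27, with GEMIN4 gained at 5 kb and with starts only. Over all protein-coding genes they ran from 2772 (500 bp) to 4234 (5 kb), with 2974 for starts only. With starts only PRPF3, SF3B3 and SNRPD1 were lost, because they have no start listed. No paired analysis was possible because each protein has 1 peak list, and for the same reason no replicate could be left out. Library depth is unknown, and the 3A pileups of the 9 members, 41 to 146 fragments, limit the precision of their folds.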

Other observations

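Genes annotated as snRNA include those of the spliceosomal RNAs and some others, such as RN7SK. Of 154 such genes 3A had a summit within 1 kb of 1, 7A of 0 and WT of 2, in a count chosen after the peak lists were seen. The shares of all protein-coding genes were 3.51% for 3A, 0.125% for 7A and 16.8% for WT. The 3A summit was at RNU2-2, a U2 RNA gene beside WDR74, with a fold of 1.72. The WT summits were at RNU12, the U12 RNA of the minor spliceosome, with a fold of 4.38 beside POLDIP3, and at RN7SK, which holds the elongation factor P-TEFb inactive, with a fold of 5.27. Many snRNA genes have near-identical copies, and how reads in such copies were treated is not given.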
